A study of Homo sapiens with 6 samples.

Results

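STC1 and STC2, the 2 human stanniocalcin genes, were taken by symbol from a table of 21776 genes counted by RNA sequencing in an oral squamous cell carcinoma line under hypoxia and normoxia. The libraries are labelled as SCC25 without genetic change, an established line of human oral squamous cell carcinoma, while the figure legend of the pathway analysis names SCC9, another established oral line. Hypoxia was a gas mixture with 1% O2 and 5% CO2, normoxia was air with 5% CO2, and both lasted 12 h according to the labels. Each condition had 3 libraries of total RNA, and nothing says that these came from separate cultures, so the p-values measure only the spread between libraries, which may be technical. The hypoxia libraries held 30186813, 36076088 and 32272716 counts (replicates 1 to 3), and the normoxia libraries 37278703, 29637189 and 29981208. Bulk libraries of this kind cannot tell a change in RNA per cell from a change in the make-up of the culture.

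Stanniocalcins are glycoprotein hormones that cells secrete as disulfide-linked dimers. They are named after the corpuscles of Stannius, the organs of bony fish whose hormone lowers calcium uptake. In mammals they act near the cells that make them, and both bind the pappalysins PAPPA and PAPPA2, secreted proteases that free insulin-like growth factors (IGF) by cutting their binding proteins. STC1 is known as a gene induced by low oxygen through hypoxia-inducible factor (HIF), and STC2 is known to be induced by low oxygen and by stress of the endoplasmic reticulum. The deposited annotation gives STC1 (Entrez gene 6781) 27 Gene Ontology terms and STC2 (Entrez gene 8614) 21, of which 7 are shared, among them hormone activity, intracellular calcium ion homeostasis and cellular response to hypoxia. The term regulation of store-operated calcium entry is carried by STC2 and not by STC1.

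Neither stanniocalcin shares an exonic base with another gene of GENCODE v29, so in that annotation no overlapping gene on either strand adds to their counts. The stretch below is shown because it holds the letters of the HIF binding core in the 250 bases before the RefSeq start of STC2 (GRCh38.p14), beside the same kind of stretch from 4 genes of the hypoxia response list. The promoter of STC1 was not analysed here. Sequences are written 5′ to 3′ on the strand of the gene, and capitals mark every match to GCGTG or ACGTG on either strand, so that CACGC and CACGT are matches on the reverse strand.
STC2 (chr5:173328630-173328659, minus strand): cactcatacaCACGCACGCaaacGCGTGgc
ADM (chr11:10304960-10304989, plus strand): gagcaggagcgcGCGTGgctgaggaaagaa
PFKFB4 (chr3:48556952-48556981, minus strand): tgagttgggcatGCGTGgtcggaggccggg
KDM3A (chr2:86441333-86441362, plus strand): ccgggaggctgtGCGTGtcttgtgagagct
CA9 (chr9:35673898-35673927, plus strand): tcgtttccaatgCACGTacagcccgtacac
The STC2 stretch holds 3 matches to GCGTG, 2 of them overlapping on the reverse strand, and they begin 222 to 235 bases before the RefSeq start. ACGTG was not found in the 250 bases, nor was TGATGNAA, the letters of the element bound by ATF4. Of 27305 promoters of the same length in the RefSeq table, 31.9% hold GCGTG, 18.7% hold ACGTG, 43.1% hold either and 3.19% hold TGATGNAA, so the letters seen before STC2 are common. Either core was found in 10 of the 13 hypoxia response genes with a promoter in the table. That count pools GCGTG with ACGTG, which the STC2 window lacks. Of the 10, only ADM, BNIP3, PFKFB4, PGK1 and KDM3A held GCGTG, and the others held ACGTG alone. The longest transcript of STC2 in GENCODE v29 starts 1089 bases further upstream, so the window lies inside that transcript. The motif matches are letters only, and no binding was measured here.

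Both stanniocalcins were upregulated under hypoxia. STC1 rose about 6-fold from a modest level, and STC2 rose about 3-fold from a level that was already high. Values are given as CPM, that is counts scaled to a common library total after TMM normalization. In the 3 hypoxia libraries, in replicate order, STC1 stood at 216, 247 and 248 CPM, and in the 3 normoxia libraries at 34.4, 31.8 and 49.7 CPM. The conditions did not overlap, and the lowest hypoxia library lay 4.34 times above the highest normoxia library. Mean STC1 was 38.6 ± 9.69 CPM under normoxia and 237 ± 18.3 CPM under hypoxia (SD, n = 3 each). The edgeR quasi-likelihood test over 14255 genes gave a log2-fold change of 2.62 with a standard error of 0.12 and a Benjamini-Hochberg adjusted p of 1.97e-12.

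STC2 stood at 996, 1014 and 1035 CPM in the hypoxia libraries and at 346, 355 and 354 CPM in the normoxia libraries. Again every hypoxia library exceeded every normoxia library, by at least 2.80 times. Mean STC2 went from 352 ± 4.87 to 1015 ± 19.5 CPM (SD, n = 3 each), and edgeR gave a log2-fold change of 1.53 with a standard error of 0.049 and an adjusted p of 5.23e-14. For each gene the exact two-sided permutation test gave p = 0.1, the smallest value that 3 libraries against 3 allow. Both genes were thus called higher, where 77.8% of all genes tested were called in either direction and 39.2% were called higher. All hypoxia libraries lay above all normoxia libraries for both, as for 40.6% of the genes tested, while 39.9% had them all below. A log2-fold change at least as large as that of STC1 was found in 4.97% of the genes tested, and one at least as large as that of STC2 in 12.7%.

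The genes differed in how tightly they were held. STC2 varied by 1.38% between normoxia libraries and by 1.93% between hypoxia libraries (coefficient of variation of CPM, n = 3). STC1 varied by 25.1% and 7.72%, with normoxia replicate 3 the highest and hypoxia replicate 1 the lowest of their conditions. Without normoxia replicate 3 the log2-fold change of STC1 was 2.82, and that of STC2 was 1.52.

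Levels of the genes can be set beside each other only per length, for which the deposited FPKM were used (fragments scaled to the length of the gene and the total of the library). STC2 was the more abundant stanniocalcin transcript in all 6 libraries. It had 242 ± 4.87 FPKM under hypoxia and 81.3 ± 0.744 FPKM under normoxia (SD, n = 3 each). STC1 had 62.2 ± 5.09 FPKM under hypoxia and 9.83 ± 2.52 FPKM under normoxia (SD, n = 3 each). Ordered by mean FPKM among all 21776 genes, STC2 moved from position 746 to position 210, and STC1 from position 4877 to position 871. On the log2(FPKM + 1) scale the changes were 2.57 for STC1 (standard error 0.14, adjusted p = 5.54e-07) and 1.56 for STC2 (standard error 0.048, adjusted p = 8.03e-08), both by limma over 10976 genes, of which 36.7% were called higher.

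Under hypoxia the balance between the stanniocalcins shifted toward STC1, within a total that rose. The share of STC1 in the summed FPKM of both genes was 19.2%, 21.2% and 20.8% in the hypoxia libraries, and 9.86%, 8.96% and 13.4% in the normoxia libraries. The ratio within a library does not depend on the normalization between libraries, and its conditions did not overlap. The log2 ratio of STC1 to STC2 counts was -2.10 ± 0.092 under hypoxia and -3.21 ± 0.34 under normoxia (SD, n = 3 each). The difference was 1.11 (standard error 0.20), which is larger than the spread between libraries. An exact two-sided permutation of libraries gave p = 0.1, again the lowest attainable. That permutation test cannot pass a threshold of 0.05 with this number of libraries, and no other test of the difference is given here. In absolute terms STC2 gained more. Per length, STC2 went from 81.3 to 242 mean FPKM and STC1 from 9.83 to 62.2. Their summed FPKM was 293, 312 and 309 in the hypoxia libraries and 90.1, 88.5 and 94.7 in the normoxia libraries. Without scaling to length, STC2 gained 663 CPM and STC1 198 CPM, and both together went from 390 ± 11.9 to 1251 ± 36.4 CPM (SD, n = 3 each).

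The pappalysins, which the stanniocalcins inhibit, were scarce in these cells and moved in opposite directions. PAPPA had 53, 69 and 43 counts under hypoxia and 198, 157 and 142 under normoxia (log2-fold change -1.66, standard error 0.20, adjusted p = 6.32e-07 by edgeR). PAPPA2 had 19, 13 and 36 counts under hypoxia and 5, 2 and 6 under normoxia (log2-fold change 2.30, standard error 0.58, adjusted p = 0.00161 by edgeR), so its change rests on few reads. For neither gene did the conditions overlap, which is common here. Of all genes tested, 40.6% had every hypoxia library above every normoxia library and 39.9% had them all below. Per length, PAPPA fell from 0.46 to 0.15 FPKM and PAPPA2 went from 0.011 to 0.058 FPKM, far under the stanniocalcins.

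Among the binding proteins and receptors downstream, most measured genes were higher under hypoxia. The list of the pappalysins and the IGF axis held 15 genes, of which 13 were in the table and 10 passed the filter on low counts. Of the 10, 7 were higher, 2 were lower and 1 did not pass the threshold, beside 39.2% higher and 38.5% lower over all genes tested. Their median log2-fold change was 1.71, against 0.023 over all genes tested. IGFBP3, a carrier of IGF in plasma, rose most, from 44.5 ± 17.0 to 467 ± 66.9 CPM (SD, n = 3 each; log2-fold change 3.39). IRS2, an adaptor of the insulin and IGF receptors, rose by 2.75, and the insulin receptor INSR by 2.68 from 6, 7 and 19 counts under normoxia. Without normoxia replicate 3 the value of INSR was 3.43. IGFBP6, IGF1R and IGF2R were also higher, with log2-fold changes of 1.93, 1.49 and 0.47. The other adaptor, IRS1, fell by 1.04. IGFBP4 and IGFBP5, which are among the binding proteins that pappalysins cut, were near the limit of counting. IGFBP4 had 11, 9 and 12 counts under hypoxia and 17, 3 and 2 under normoxia (log2-fold change 0.51, adjusted p = 0.457 by edgeR). Without normoxia replicate 1 it passed the threshold, at 1.84 (adjusted p = 0.0413 by edgeR). IGFBP5 had at most 5 counts in any library and was not tested, and the growth factor IGF2 had at most 1 count. IGF1 and IGFBP2 were not analysed here.

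**Figure D1:**
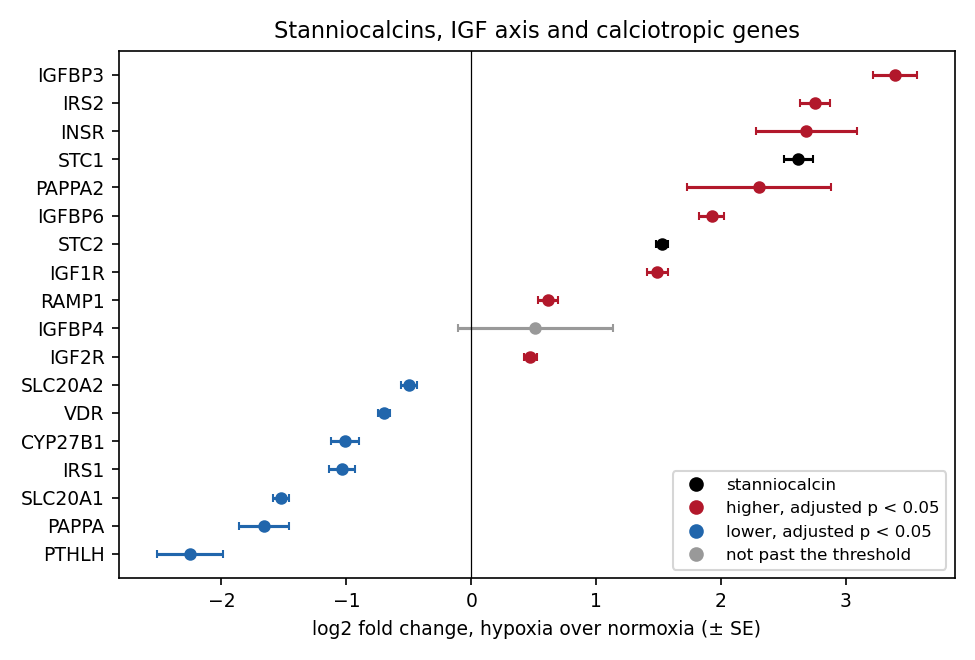
Log2-fold changes of hypoxia over normoxia (x axis) with bars of ± 1 standard error from edgeR, for the stanniocalcins in black and the tested genes of the lists of the IGF axis and of calciotropic genes. IGFBP3 (3.39), IRS2 (2.75) and INSR (2.68) lie above STC1 (2.62), while PTHLH (-2.25) and PAPPA (-1.66) lie lowest.

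Of the 16 genes listed for store-operated calcium entry and calcium pumps, 15 were tested, of which 5 were higher, 7 lower and 3 not past the threshold (median log2-fold change -0.20). These counts lie near the shares over all genes tested, 39.2% higher and 38.5% lower. STIM1, the calcium sensor of the endoplasmic reticulum in store-operated entry, went from 34.2 ± 1.59 to 27.6 ± 1.81 CPM (SD, n = 3 each; log2-fold change -0.31, adjusted p = 0.00106 by edgeR). The channel genes that STIM1 opens parted. ORAI1 fell by 1.35 on the log2 scale, from 22.7 to 8.93 CPM, and ORAI2 was lower as well (-0.24), from 77.3 to 65.3 CPM. ORAI3, in contrast, rose by 2.82, from 6.24 to 43.9 CPM. ATP2B4 and ATP2A3, which encode calcium pumps of the plasma membrane and the endoplasmic reticulum, were higher (2.04 and 2.17), the latter from 6, 10 and 9 counts. Other pumps of the same membranes were lower, with ATP2A2 of the endoplasmic reticulum going from 586 to 288 CPM (-1.02) and ATP2B1 of the plasma membrane from 74.0 to 42.4 CPM (-0.80). The exchanger gene SLC8A1 fell by 1.19.

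Of 20 genes listed for calcium and phosphate hormones, their receptors and phosphate transport, 12 were in the table and 6 passed the filter on low counts. Of the 6, 1 was higher and 5 were lower (median log2-fold change -0.85), where 39.2% of all genes tested were higher and 38.5% lower. The 6 under the filter had at most 15 counts in any library, and the calcium channel gene TRPV6 among them had 8, 11 and 14 counts under hypoxia and 0, 1 and 1 under normoxia. PTHLH, the parathyroid hormone-related protein of squamous tumors, had 25, 34 and 18 counts under hypoxia and 140, 115 and 95 under normoxia (log2-fold change -2.25, standard error 0.26, adjusted p = 4.55e-07 by edgeR). SLC20A1, a phosphate importer, fell by 1.52, from 172 ± 2.61 to 60.0 ± 5.37 CPM (SD, n = 3 each). The vitamin D receptor VDR, the vitamin D hydroxylase CYP27B1 and SLC20A2 were also lower (-0.70, -1.01 and -0.50). RAMP1, a partner of calcitonin family receptors, was the gene called higher, at 0.62.

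Reported partners of the stanniocalcins gave a mixed picture. HMOX1, a heme oxygenase that binds STC2, rose from 5.44 ± 0.505 to 18.2 ± 1.91 CPM (SD, n = 3 each; log2-fold change 1.74, adjusted p = 4.73e-10 by edgeR). UCP2, a mitochondrial carrier linked to STC1, rose by 1.23 from 35, 39 and 39 counts under normoxia. CALR, the chaperone calreticulin, had 948 ± 33.8 CPM under hypoxia and 998 ± 33.0 CPM under normoxia (SD, n = 3 each), with overlapping libraries and a log2-fold change of -0.074 (adjusted p = 0.192 by edgeR). SOD2 gave 0.020 (adjusted p = 0.756 by edgeR).

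The machinery that folds and modifies secreted disulfide proteins was in part higher. All 10 genes of that list were tested, of which 6 were higher, 0 lower and 4 not past the threshold (median log2-fold change 0.28), beside 39.2% higher and 38.5% lower over all genes tested. For 0 of the 10 did every hypoxia library lie below every normoxia library, beside 39.9% of all genes tested. ERO1A, the oxidase that drives disulfide formation, rose from 189 ± 7.47 to 727 ± 64.1 CPM (SD, n = 3 each; log2-fold change 1.95, standard error 0.064). QSOX1, another sulfhydryl oxidase, rose by 0.87, and FAM20C, the kinase of secreted proteins, by 0.78.

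The transcripts of the oxygen sensing pathway changed unequally. HIF1A, which encodes a HIF subunit controlled mainly through protein stability, fell from 320 ± 14.7 to 67.0 ± 10.4 CPM (SD, n = 3 each; log2-fold change -2.26, standard error 0.083). EPAS1, which encodes the other main oxygen-regulated subunit, rose from 105 ± 9.84 to 276 ± 12.9 CPM (SD, n = 3 each; log2-fold change 1.40). Of the 10 genes of subunits and sensors, 8 were tested, with 6 higher and 1 lower (median log2-fold change 1.01), beside 39.2% and 38.5% of all genes tested. EGLN3 (6.69), ARNT2 (2.26) and EGLN1 (1.49) rose most.

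Beside 15 genes of the hypoxia response, all of them higher where 39.2% of all genes tested were, the stanniocalcins stood in the middle and lower part. The log2-fold change of STC1 was exceeded by 9 of the 15 and that of STC2 by 12. STC1 lay next to KDM3A (2.65), a histone demethylase, and P4HA1 (2.42), a collagen hydroxylase, and these 3 values differed by at most 0.23, against standard errors of 0.12, 0.087 and 0.076. STC2 lay next to SLC2A1 (1.49, standard error 0.050), the glucose transporter. The largest increases of the list were EGLN3 (6.69), NDRG1 (5.40) and ANGPTL4 (3.89), and without normoxia replicate 3 NDRG1 was at 6.03.

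Genes of the endoplasmic reticulum stress response, to which STC2 is known to belong, were called in both directions. Of 20 genes of the integrated stress and unfolded protein responses, 5 were higher, 8 lower and 7 not past the threshold (median log2-fold change -0.041), beside 39.2% higher and 38.5% lower over all genes tested. ATF4, the factor known to induce STC2 under such stress, had 357 ± 14.4 CPM under hypoxia and 338 ± 5.03 CPM under normoxia (SD, n = 3 each; log2-fold change 0.078, adjusted p = 0.165 by edgeR). These are transcript levels, and the amount and activity of ATF4 protein were not measured here. When every library had to hold at least 10 counts, ATF4 passed the threshold, at 0.16 (adjusted p = 0.00818 by edgeR, and up to 0.566 over the other alternatives). That filter also moved other genes up, such as CALR (-0.074 to 0.0033) and HSPA5 (-0.607 to -0.530), so the shift was not particular to ATF4. DDIT3, a target of ATF4, had 237, 293 and 226 counts under hypoxia and 237, 134 and 228 under normoxia (log2-fold change 0.27, adjusted p = 0.138 by edgeR). Without normoxia replicate 3 it passed, at 0.42 (adjusted p = 0.0157 by edgeR). The chaperone HSPA5 was lower, from 641 ± 12.7 to 421 ± 19.96 CPM (SD, n = 3 each; log2-fold change -0.61), as were XBP1 (-1.80) and SDF2L1 (-1.27). DDIT4, an inhibitor of mTORC1 that also responds to low oxygen, rose by 3.74, and ATF3 by 1.54. The sensor kinase EIF2AK3 rose by 0.32 and lost its call without normoxia replicate 1 (0.26, adjusted p = 0.0519 by edgeR).

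**Figure D2:**
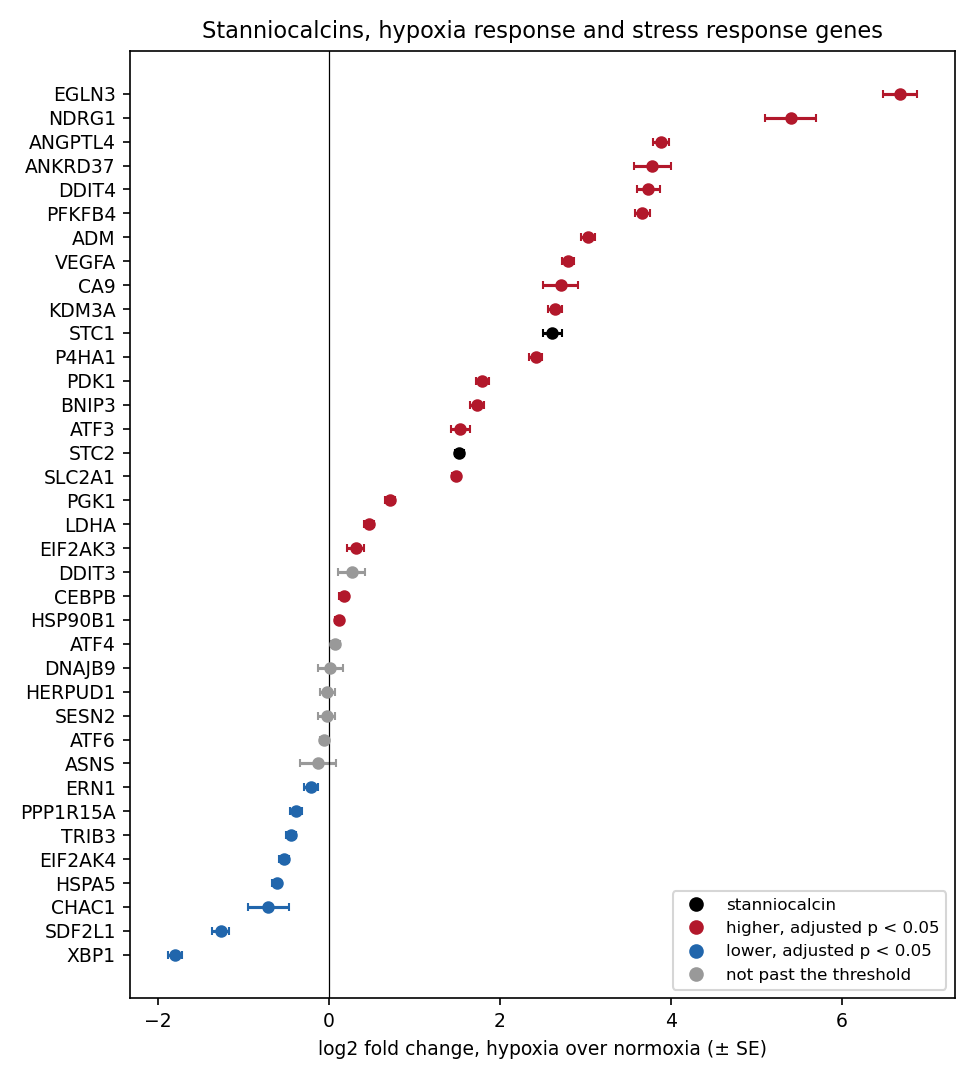
Log2-fold changes of hypoxia over normoxia (x axis) with bars of ± 1 standard error from edgeR, for the stanniocalcins in black and the genes of the hypoxia response and stress response lists. STC1 (2.62) lies between KDM3A and P4HA1 and STC2 (1.53) between ATF3 and SLC2A1, while HSPA5 (-0.61) and XBP1 (-1.80) lie below 0.

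Genes with the most similar profiles were ranked by the root mean square difference of log2 CPM, centred on each gene's mean, over the 6 libraries and 11574 genes with a mean log2 CPM of at least 1. The nearest to STC1 was BNIP3L, a receptor of mitophagy, with a difference of 0.041. It was followed by PTPRB (0.059), a receptor tyrosine phosphatase, SMARCD3 (0.066), a subunit of chromatin remodelling complexes, HLA-F-AS1 (0.069) and HOXA13 (0.069), a homeobox factor. For HLA-F-AS1, reads from the other strand cannot be told apart, since the use of strand in counting is not stated. All 5 were higher under hypoxia, with log2-fold changes from 2.53 (PTPRB) to 2.65 (SMARCD3). Like STC1, each of the 5 had its highest normoxia value in replicate 3. Genes picked for likeness over these same libraries tend to share such traits by construction, so this is no separate result.

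The nearest to STC2 was SLC2A1, with a difference of 0.028. Per length, SLC2A1 had 300.2 mean FPKM under hypoxia and 103 under normoxia, above STC2 in both conditions. EPOR (0.035), the erythropoietin receptor, WFS1 (0.039), a membrane protein of the endoplasmic reticulum, ZNF277 (0.044) and REEP6 (0.051) followed. Their log2-fold changes lay between 1.47 and 1.59. The stanniocalcins differed from each other by 0.59 on this measure, with STC2 at position 672 in the order of likeness to STC1 and STC1 at position 3027 in the order of likeness to STC2. This likeness describes 6 libraries in 2 conditions and carries no test.

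The genes beside STC2 on chromosome 5, with the order of genes taken from RefSeq, were not called higher. Of the 3 counted genes on each side of STC2, BNIP1 (-0.52), NKX2-5 (-1.24) and BOD1 (-0.28) were lower, CPEB4 did not pass the threshold (-0.16, adjusted p = 0.133 by edgeR), and 2 uncharacterized loci were not tested. Near STC1 on chromosome 8, ADAM28, with 10, 23 and 12 counts under hypoxia and 5, 7 and 9 under normoxia, did not pass (0.98, adjusted p = 0.0912 by edgeR).

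The label of squamous epithelium was compared with marker genes. KRT5, TP63, EPCAM, CDH1 and SFN were present in every library, but KRT14, a defining keratin of basal squamous cells, had 1 read in a single library and 0 in the other 5. KRT6A, another squamous keratin, had 18, 28 and 49 counts under hypoxia and 695, 537 and 356 under normoxia (log2-fold change -4.12, adjusted p = 7.48e-11 by edgeR). Summed over 9 squamous markers, the level was 1084, 1072 and 1065 CPM of the unscaled total in the hypoxia libraries and 909, 890 and 953 in the normoxia libraries, with 3 higher and 4 lower of the 8 markers tested, beside 39.2% higher and 38.5% lower over all genes tested. Of the markers of other cell types, 2 fibroblast, 1 endothelial and 2 leukocyte markers were tested, and 1 of each type was called higher and 0 lower, too few to set against the shares over all genes. The 6 fibroblast markers summed to 22.4, 19.3 and 17.2 CPM under hypoxia and 4.02, 3.04 and 5.57 under normoxia, of which COL1A1, the gene called, was the most abundant (3.08 and 0.624 mean FPKM) and COL3A1 at no more than 2 counts. The 5 endothelial markers summed to 1.72, 1.36 and 1.61 under hypoxia and 0.295, 0.304 and 0.734 under normoxia, with CDH5, the gene called, the most abundant (0.234 and 0.103 mean FPKM). The leukocyte markers, 5 of 6 in the table, summed to 34.0, 38.5 and 39.8 under hypoxia and 33.6, 31.8 and 35.4 under normoxia, mostly from CD68, which did not pass the threshold (adjusted p = 0.305 by edgeR). CD14, the leukocyte marker called, rose from 1.07 ± 0.481 to 5.83 ± 0.445 CPM (SD, n = 3 each; log2-fold change 2.45), and PTPRC had no more than 2 counts. Their part in the change of STC1 and STC2 was not tested.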

How the data were processed

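RNA was sequenced from 3 hypoxia and 3 normoxia libraries, made with a SMARTER mRNA-Seq kit. The authors deposited counts per gene, whole numbers without normalization, and FPKM of the same genes. The deposited FPKM of STC1 and STC2 follow from their counts with gene lengths of 3868 and 4254 bases. The aligner and counting tool are not given in the sources used here, and the submitters' processing notes name the mouse builds GRCm38 and mm10 although the genes are human, so the build of the counts is unknown. Counts were tested with edgeR 4.0.16 (R 4.3.3): TMM, filterByExpr, condition as the only term, quasi-likelihood F test and Benjamini-Hochberg adjustment at 0.05 over 14255 genes, of which 77.8% were called. Ratios of counts used an added 0.5. FPKM were tested with limma 3.58.1 on log2(FPKM + 1) where the mean FPKM reached 1. Alternatives included DESeq2 1.42.0, other filters, a replicate block and each library left out. The members and lists were chosen with earlier results of these data known. Named are the stanniocalcins, 14 fixed genes (PAPPA, PAPPA2, IGFBP4, IGFBP5, STIM1, HMOX1, UCP2, CALR, HIF1A, EPAS1, ATF4, DDIT3, HSPA5 and PTHLH), up to 3 largest increases and 2 largest decreases per list, 3 neighbours on each side and the 5 nearest profiles; other genes were named after their values were seen. A planned comparison of the proteins was not run. Some neighbours of STC1 are not reported here. No replicate pair agreed within sampling noise (chi-square divided by genes, 5.11 to 11.5). The tests were checked on simulated data.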

Additional observations from a re-analysis of the deposited data

How the results depend on the processing

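The calls of STC1 and STC2 held in every alternative run. The log2-fold change of STC1 lay between 2.49 and 2.82 and that of STC2 between 1.49 and 1.61, with adjusted p-values of at most 1.63e-09 and 3.84e-11. With 1 library left out, the ranges were 2.49 to 2.82 and 1.503 to 1.54. On the log2(FPKM + 1) scale or with a pseudocount of 0.1 they were 2.44 to 2.75 and 1.55 to 1.58 (limma, adjusted p at most 0.00016). The difference between the responses lay between 0.98 and 1.30 with 1 library left out. The number of genes called was 9967 to 11920 over these settings and 4338 when an absolute log2-fold change of 1 was also required. With that requirement, which removes small changes by construction, 30 listed genes were higher and 11 lower, against 46 and 23. The replicate numbers gave no sign of pairing the libraries. The deviations of same-numbered libraries from their group means correlated at 0.018, -0.069 and 0.0012, and those of differently numbered libraries at -0.069 to 0.066. With 3 libraries per condition, these values cannot exclude a pairing. With the replicate number as a block, the log2-fold changes were 2.64 for STC1 and 1.53 for STC2, none of 53 other genes of the naming rule changed its call, and 44 listed genes were called higher and 23 lower. The block for the difference between responses was added after the data had been seen and gave 1.11. Over the fits that left out 1 library, 3 of 318 results of these genes were weaker, 2 stronger and 0 reversed. IGFBP5, with at most 5 counts in a library, was too low at these depths for a statement on its change.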

Other observations

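The stanniocalcins were also set beside the other genes that the deposited annotation lists under hormone activity, a group chosen after the values were seen. It holds 48 genes, of which 24 passed the filter on low counts. Per length, STC2 was the most abundant of the 48 under hypoxia (242 FPKM) and the second under normoxia (81.3 FPKM), after INHBA, which encodes an activin subunit and fell from 101 ± 2.06 to 40.4 ± 1.598 FPKM (SD, n = 3 each). Under hypoxia STC2 was followed by ADM, the vasodilator adrenomedullin (98.2 ± 12.2 FPKM), NMB, neuromedin B (95.5 ± 3.68 FPKM), and STC1 (62.2 ± 5.09 FPKM), and the levels of ADM and NMB did not differ beyond their spread. STC1 had been at position 7 under normoxia. Among the hormone genes tested, CGB7, INHA and ADM had larger log2-fold changes (3.90, 3.57 and 3.04) than STC1, CGB7 and INHA from levels of 0.092 and 0.15 FPKM under normoxia.

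The spread of STC1 between libraries ran with that of the hypoxia response genes, in a count made after the values were seen. Normoxia replicate 3 held the highest of the 3 normoxia values for 13 of the 15 genes of that list, where 37.2% of all genes tested had their highest value there. NDRG1 was at 409 CPM in that library against 163 and 140 in normoxia replicates 1 and 2, and CA9 at 67.7 against 32.2 and 27.3 CPM. STC1 followed this order (49.7 against 34.4 and 31.8 CPM), while STC2 was level, with a highest value 1.03 times its lowest. Hypoxia replicate 1 held the lowest of the 3 hypoxia values for 13 of the 15 genes, against 32.0% of all genes tested, and also for both stanniocalcins. The cause was not tested.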
